A study of Mus musculus with 6 samples.

Results

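The comparison described here was doxycycline (dox) against no dox in 3 mouse embryonic stem (ES) cell lines. It was made within each line, and it asks which differences appear whatever hairpin the cells carry. All 6 arrays of the series were used, as 3 pairs. V6.5 ES cells carried shRNA1 or shRNA2, both directed against Pcgf6 (a subunit of a variant Polycomb repressive complex), or a Scrambled hairpin, and each line was grown with dox at 1 µg/ml or without it. The 3 dox arrays were therefore hairpin 1, hairpin 2 and scrambled with dox, and the 3 others were the same lines without it. A pair was the dox array minus the no-dox array of the same line.

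All cultures shared the V6.5 background, serum with LIF (leukemia inhibitory factor) and a layer of mitomycin-C-inactivated DR4 mouse embryonic fibroblasts, whose RNA is measured together with that of the ES cells. The labels say neither how long dox was given nor whether a line was a clone or a pool, and nothing in them makes the arrays independent cultures. What a p-value weighs here is thus the scatter of these 3 pairs, which may be technical. In such bulk RNA, fewer cells of a type and less RNA per cell cannot be told apart. Each line has a single array with and a single array without dox, so no line has a replicate of its own.

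Dox is a tetracycline antibiotic that is used to switch on tet-controlled promoters, here those of short hairpin RNAs. At high enough exposure tetracyclines also bind the bacterial-type ribosome of mitochondria and slow the translation of the respiratory chain subunits encoded in mitochondrial DNA, which can set off the integrated stress response through the transcription factor Atf4. They also inhibit matrix metalloproteinases. An expressed hairpin, scrambled or not, passes through the small RNA machinery (Drosha, Dicer, Argonaute proteins) that the cell's own microRNAs use. A scrambled hairpin line with and without dox holds both of these together, so the arrays cannot tell dox itself from expression of a hairpin.

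The values were log2 RMA intensities of 35556 probe sets, from 2.28 to 14.27, with array medians of 7.02 to 7.08. They gave 19938 genes, each read by 1 probe set. Pcgf6, the targeted gene, differed by -2.17 on the log2 scale in hairpin 1, by -2.44 in hairpin 2 and by 0.02 in scrambled, which is the order the labels give. All 8 ES cell markers were bright on every array: their mean level lay between 11.90 and 12.11, and the lowest single value was 10.30.

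No gene passed the paired test. With limma and Benjamini-Hochberg adjustment over all genes, 0 of 19938 genes (0% called) reached an adjusted p of 0.05, and the smallest adjusted p was 0.2475, shared by 26 genes. An unadjusted p under 0.05 was found for 2314 genes, 1391 higher and 923 lower with dox, where a uniform spread of p-values would give 997. Genes that moved only with the Pcgf6 hairpins are counted too, such as Pcgf6 (limma, unadjusted p = 0.009227). With the mean of a feeder fibroblast gene list as a covariate the count was 969. It was 2574 without hairpin 1, 978 without hairpin 2 and 1994 without scrambled. Each of these fits left 1 residual degree of freedom. With 3 pairs an exact sign-flip test of a single gene cannot go below 0.25 (two-sided). The differences below are therefore described by their size in every pair and by their intervals, and none is called changed.

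Most genes of equal sign in all 3 pairs differed by under 1.2-fold in at least 1 pair. With dox, 3026 genes were higher in all 3 pairs (15.2% of genes) and 3679 were lower in all 3 (18.5%). The other 13233 were mixed. Taken singly, hairpin 1, hairpin 2 and scrambled had 10041, 9122 and 9269 genes higher with dox. Signs that were independent between pairs would also place many genes in these counts, so the counts alone do not show a shared response. At least 1.2-fold in every pair, a log2 difference of 0.263, left 69 higher genes (0.346%) and 48 lower genes (0.241%). At 1.5-fold in every pair 2 higher genes remained (0.01%), Gal and Pglyrp1, and no lower gene. For 79 of these 117 genes (37 higher, 42 lower) the 3 dox values and the 3 no-dox values did not overlap at all, which held for 12.2% of all genes. Being chosen for equal direction, the 117 genes carry no further test of it: all had an unadjusted p under 0.05, and the same demand leaves little room for a different response in the scrambled line. At the floor, Ets2 lay just inside on the higher side at 0.2634 in its weakest pair and Dab2 just outside at 0.2617. On the lower side Matn3 lay just inside at -0.2643 and Ankrd45 just outside at -0.2618.

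**Figure D1:**
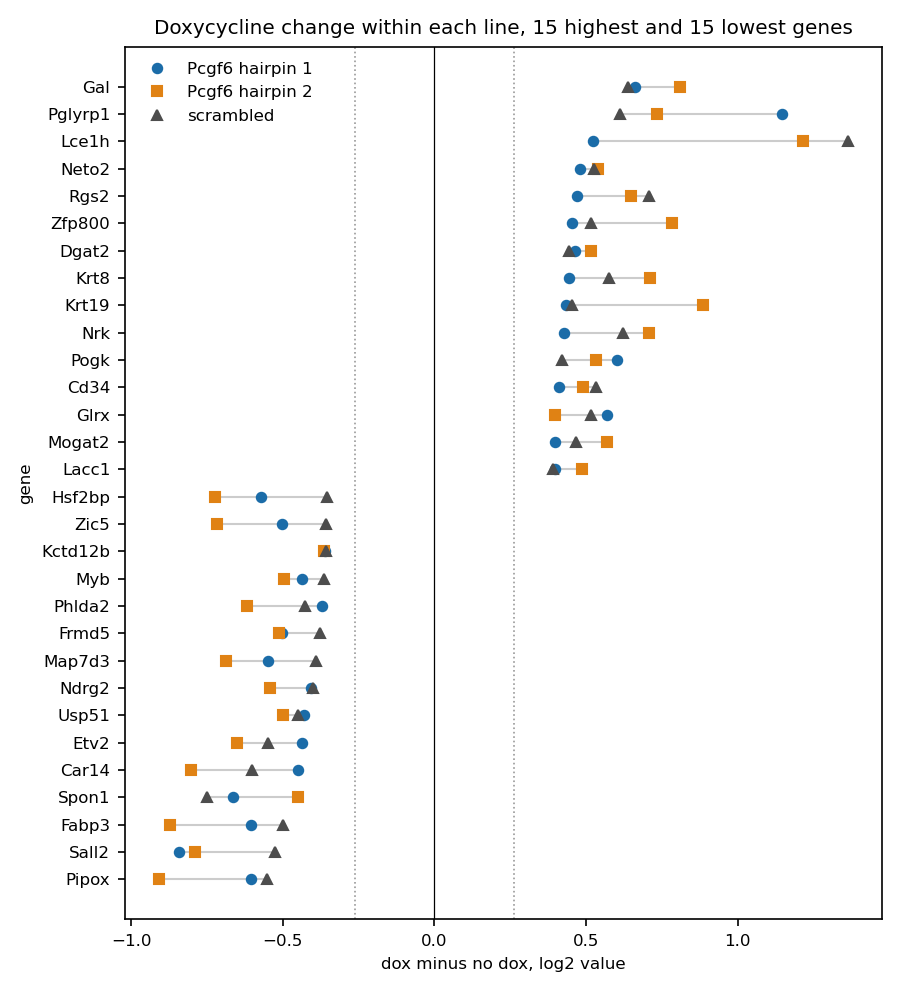
Differences between the dox and the no-dox array (log2 values, x axis) for the 15 genes highest and the 15 lowest by their weakest pair, among genes of equal sign in all 3 pairs. Points are the 3 lines, grey bars join the lowest and highest pair, and dotted lines mark the 1.2-fold floor. In each gene all 3 points lie outside the dotted lines, on 1 side, from Gal at 0.64 or more to Pipox at -0.55 or less.

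By the weakest of the 3 pairs, the strongest difference over all 35556 probe sets came from those for cornified-envelope proteins. These proline- or cysteine-rich proteins are cross-linked under the membrane of keratinocytes as they harden, and their genes lie together in the epidermal differentiation complex on mouse chromosome 3. A probe set listed under Sprr2a1, Sprr2a2, Sprr2a3 and Sprr2b, near-identical copies that it cannot separate, read 10.29 without and 11.33 with dox in hairpin 1, 9.68 and 11.41 in hairpin 2, and 9.86 and 11.45 in scrambled. All 3 dox arrays stood above all 3 others by more than 1 log2 unit, and the mean difference was 1.45 (SE 0.15, n = 3 pairs), or 2.74-fold, with an adjusted p of 0.639 in the limma fit over all probe sets. A second probe set, listed under Sprr2a1 and Sprr2a3, differed by 0.97, 1.56 and 1.51. Because several symbols share them, neither probe set is among the 19938 genes, and both were picked out after their values were seen. Sprr2b also has a probe set of its own, which read 3.92 to 4.48 on the 6 arrays and differed by 0.19, 0.55 and 0.24. Which copies give the shared signal was not tested.

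Lce1h, a late cornified envelope gene, had the largest mean difference of the 117 genes. Its values were 9.45 without and 9.97 with dox in hairpin 1, 7.90 and 9.11 in hairpin 2, and 8.24 and 9.61 in scrambled. The mean difference was 1.03 (SE 0.15; 95% interval of the fit 0.67 to 1.40; adjusted p = 0.2475 in limma). The groups overlap, since hairpin 1 cells without dox already stood above hairpin 2 cells with it. Lce1h belongs to a family of close copies, so its probes may read relatives too. Crct1, a cysteine-rich gene of the same complex, differed by 0.35, 1.17 and 0.80. As for Lce1h, the smallest step was in hairpin 1, where its no-dox value of 9.29 was the highest of the 3 no-dox arrays.

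Most relatives of these genes did not share the size of the difference. Of 13 Sprr genes read by probe sets of 1 symbol, 5 were higher and 1 was lower in all 3 pairs, none by 1.2-fold in each. Sprr1a, an envelope precursor induced by stress, differed by 0.18, 0.24 and 0.76. Among 19 Lce genes, 6 were higher and 2 lower in all 3 pairs, and Lce1h alone passed 1.2-fold. Both families were dim. Mean levels on the 6 arrays were 5.29 to 5.42 for Sprr and 5.61 to 5.83 for Lce genes. The lower quartile of the arrays was 5.50 to 5.56, so the counts say little about relatives that are hardly expressed. These families, and the keratin and desmosome families below, were gathered after the values were seen.

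Keratins of simple epithelia and the desmosome plaque protein Dsp were also higher with dox in every line. Krt8 and Krt18 pair to form the first intermediate filaments of the embryo, and Krt19 joins them in trophectoderm and gut. Krt8 read 11.24 without and 11.69 with dox in hairpin 1, 11.19 and 11.90 in hairpin 2, and 11.50 and 12.07 in scrambled, so that every dox array was above every other array. Its mean difference was 0.58 (SE 0.08; interval 0.39 to 0.76), or 1.49-fold. Krt18, the neighbour of Krt8 on chromosome 15, differed by 0.39, 0.72 and 0.29. Krt19 on chromosome 11 differed by 0.43, 0.89 and 0.46 and also had groups that did not overlap.

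The difference was not common to keratins. Of 52 keratin genes, 6 were higher and 5 lower in all 3 pairs, and the 3 genes past 1.2-fold were Krt8, Krt18 and Krt19. Krt7, another simple keratin, differed by 0.09, 0.01 and 0.11, with an interval for the mean of -0.09 to 0.23. In the list of trophectoderm genes and simple keratins, 6 of 17 were higher and 1 was lower in all 3 pairs, with medians of 0.10, 0.11 and 0.16 against 0.00, -0.02 and -0.01 over all genes. Cdx2, a transcription factor of trophectoderm, differed by 0.22, 0.25 and 0.23, close in size in the 3 lines and under the floor.

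Dsp, which anchors keratin filaments at desmosomes, read 9.89 and 10.25 in hairpin 1, 9.69 and 10.40 in hairpin 2, and 10.28 and 10.89 in scrambled, without and with dox. The lines differ in level before dox, scrambled being highest, so the groups overlap although each line stepped up, by 0.56 on average (SE 0.09). Over 12 genes of desmosome cadherins and plaque proteins, Dsp included, 7 were higher and 0 lower in all 3 pairs. Over all genes these shares were 15.2% and 18.5%. Dsc2, a desmosome cadherin, differed by 0.15, 0.92 and 0.54, Dsg1b by 0.43, 0.06 and 0.29, Dsc3 by 0.11, 0.46 and 0.05, Dsg2 by 0.06, 0.43 and 0.01, and Jup, a plaque protein, by 0.12, 0.13 and 0.06. Pkp2, also a plaque protein, differed by 0.01, 0.08 and 0.14. Apart from Dsp, the members with equal sign were thus under 1.2-fold in at least 1 line. Dsg1b and Dsc3 were dim, at 3.88 to 4.31 and 5.00 to 5.56, near or under the arrays' lower quartiles of 5.50 to 5.56. Plet1, a surface protein of early placenta, differed by 0.74, 0.63 and 0.29, and Krtdap, a secreted protein of differentiating keratinocytes, by 0.76, 0.43 and 0.34. For both the scrambled line showed the smallest difference.

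**Figure D2:**
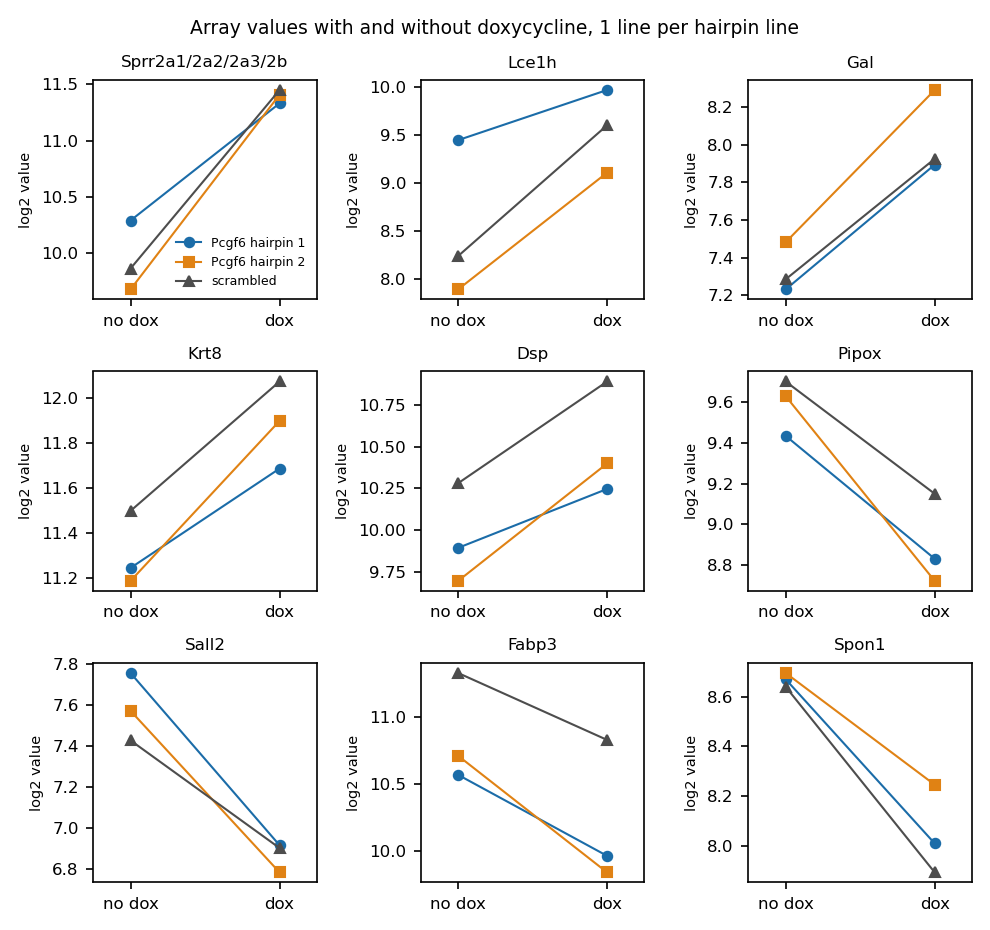
Log2 values (y axis, scaled to each panel) of the no-dox and dox array of each line for the Sprr2a probe set and 8 genes. Each line joins the 2 arrays of 1 hairpin line. The Sprr2a values with dox lie between 11.33 and 11.45 although the no-dox values range from 9.68 to 10.29, while for Lce1h the lines keep their order and for Fabp3 the scrambled line is highest in both states.

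Gal and Pglyrp1 were the genes with at least 1.5-fold in every pair. Gal encodes the neuropeptide galanin, and it read 7.23 without and 7.89 with dox in hairpin 1, 7.48 and 8.29 in hairpin 2, and 7.29 and 7.93 in scrambled. The 3 dox values lay above all no-dox values, and the mean difference of 0.70 (SE 0.07; interval 0.53 to 0.88; 1.63-fold) varied little between lines. Pglyrp1, a secreted protein that binds bacterial peptidoglycan, read 7.94 and 9.09, 7.66 and 8.40, and 7.95 and 8.56 in the same order. Its step was largest in hairpin 1 and smallest in scrambled, without overlap, with a mean of 0.83 (SE 0.11).

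Dgat2 and Mogat2, enzymes of triacylglycerol synthesis, were a further neighbouring pair. Dgat2 adds the third fatty acid to diacylglycerol, and Mogat2 acts on monoacylglycerol; they are next to each other on chromosome 7 among the genes measured. Dgat2 read 8.80 and 9.26, 8.59 and 9.11, and 8.22 and 8.66 without and with dox in hairpin 1, hairpin 2 and scrambled. Mogat2 read 8.50 and 8.90, 8.35 and 8.92, and 8.51 and 8.98. Mogat2's groups did not overlap and Dgat2's did, because Dgat2 was lower in the scrambled line throughout. Dgat1, an enzyme with the activity of Dgat2 but unrelated in sequence, differed by -0.17, 0.08 and 0.02. The difference was not common to the pathway. Of 16 genes of triacylglycerol synthesis and breakdown, gathered after the values were seen, 4 were higher, 1 was lower and 11 were mixed. Dgat2 and Mogat2 alone passed 1.2-fold in each pair, and the medians were -0.0025, 0.05 and 0.02.

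Several of the remaining higher genes act in signalling and were named after their values were seen or by rank. Rgs2, which turns off G proteins of the Gq class, differed by 0.47, 0.65 and 0.71, and its uninduced level varied from 6.15 in scrambled to 7.47 in hairpin 2, more than the step in any line. Neto2, an auxiliary subunit of kainate receptors, differed by 0.48, 0.54 and 0.53, nearly the same in each. Sp5, a transcription factor downstream of Wnt, differed by 0.37, 0.31 and 0.57, and Rspo3, a secreted enhancer of Wnt signalling, by 0.33, 0.26 and 0.51. Of 15 Wnt targets 7 were higher and 1 was lower in all 3 pairs, with Sp5 alone past 1.2-fold. Pdgfb (a growth factor), Ier3 (an early response gene), Il24 (a cytokine) and Tnfrsf21 (a death receptor) were also among the 69.

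Ifih1, the cytosolic sensor MDA5 of double-stranded RNA, differed by 0.36, 0.53 and 0.36 and read between 6.25 and 6.58 with dox against 5.89 to 6.22 without. Irgm1, a GTPase induced by interferon, differed by 0.68, 0.33 and 0.46, and Ripk3, a kinase of necroptosis, by 0.38, 0.65 and 0.31. A probe set shared by Gbp2 and Gbp2b, interferon-induced GTPases, differed by 0.44, 0.47 and 0.63. Of 8 Gbp genes read by probe sets of 1 symbol, 3 were higher and 1 was lower in all 3 pairs, and 4 were mixed. None passed 1.2-fold in each pair. The lower gene was Gbp5, at -0.26, -0.20 and -0.10. Iigp1, a relative of Irgm1, differed by -0.09, -0.14 and -0.21. Gbp5 and Iigp1 were dim, with mean values of 4.66 and 4.16. The interferon list as a whole did not share a common direction: 5 of its 22 genes were higher and 3 lower in all 3 pairs, with medians of -0.04, 0.14 and 0.05. Ddx58, the sensor RIG-I, differed by 0.06, 0.09 and 0.14, and Oas1a by -0.02, -0.50 and -0.38.

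Glrx (glutaredoxin, a thiol reductase), Nrk (an X-linked kinase of the placenta), Cd34 (a sialomucin of progenitor and endothelial cells), Zfp800, Pogk and Lacc1 completed the 15 highest, with weakest pairs from 0.39 to 0.45. Plagl1, an imprinted zinc-finger gene, differed by 0.37, 0.75 and 0.42. Among 13 imprinted genes gathered after the values were seen, 4 were higher and 1 was lower in all 3 pairs. The lower gene was Phlda2, which limits placental growth, at -0.37, -0.62 and -0.43. A pair of probe sets shared by Rtl8a and Rtl8b, X-linked genes derived from a retrotransposon, differed by 0.33 to 0.35 in hairpin 1, 0.53 to 0.57 in hairpin 2 and 0.59 to 0.67 in scrambled.

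On the lower side the first 4 genes serve peroxisomal amino acid breakdown, transcription, fatty acid transport and the matrix. Pipox oxidises sarcosine and pipecolic acid in peroxisomes, and it read 9.43 without and 8.83 with dox in hairpin 1, 9.63 and 8.72 in hairpin 2, and 9.70 and 9.15 in scrambled. All dox values were under all no-dox values, with a mean difference of -0.69 (SE 0.09; interval -0.90 to -0.47), or 1.61-fold lower. Gnmt, which makes sarcosine from glycine, was among the 48 as well, at -0.35, -0.34 and -0.47. Sall2, a zinc-finger transcription factor, had the largest mean difference on this side, -0.72 (SE 0.09; interval -0.92 to -0.52). It read 7.76 and 6.91, 7.57 and 6.78, and 7.43 and 6.90, with no overlap and the smallest step in scrambled.

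Fabp3, a carrier of fatty acids in the cytosol, read 10.57 and 9.96, 10.71 and 9.84, and 11.33 and 10.83 without and with dox. Scrambled cells stood higher in both states, so the groups overlap. Its other probe set differed by -0.60, -0.84 and -0.42, close to -0.60, -0.87 and -0.50 for the main probe set. Spon1, a secreted matrix protein, differed by -0.66, -0.45 and -0.75, and Car14, a membrane carbonic anhydrase, by -0.45, -0.80 and -0.60.

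Among the lower genes, Etv2, Myb and Cdh5 act in blood and vessel development. Cdh5 was picked after its values were seen, and no list of such genes was counted. Etv2, the ETS factor that starts the endothelial and blood programme, read 8.05 and 7.62, 8.27 and 7.62, and 8.14 and 7.59, so that the 3 dox values lay between 7.59 and 7.62. Myb, a factor of blood progenitors, differed by -0.44, -0.49 and -0.36, and Cdh5, the cadherin of endothelial junctions, by -0.33, -0.40 and -0.30. None of these genes had overlapping groups. Cd34 went the other way, as given above. So did Laptm5 (0.30, 0.36 and 0.37) and Rasgrp1 (0.29, 0.28 and 0.32), which are also expressed in blood cells.

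Genes of the primed epiblast and ectoderm made up the list with most members past the floor. Of 16 genes, 7 were lower and 2 higher in all 3 pairs, and 4 were lower by 1.2-fold or more: Sall2, Zic5, Pax6 and Dnmt3a. Pax6, a factor of eye and forebrain, differed by -0.33, -0.43 and -0.63, and Dnmt3a, a de novo DNA methyltransferase, by -0.31, -0.43 and -0.36. The list's medians were -0.32 and -0.39 with the Pcgf6 hairpins and 0.00 with the scrambled hairpin. Dnmt3b, the related methyltransferase, differed by -0.68, -0.62 and -0.11, and Fgf5, a growth factor of the primed epiblast, by -0.58, -0.43 and 0.58; neither difference between lines was called in the test of the response (limma, adjusted p = 0.8936 and 0.1894). Zic5 differed by -0.50, -0.72 and -0.36 on its main probe set, but by -0.19, -0.59 and 0.06 on the other, which was not lower in the scrambled line.

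Core pluripotency factors stayed close to their no-dox levels. Pou5f1 (Oct4) differed by 0.02, -0.06 and -0.08, with an interval for the mean of -0.20 to 0.13, and Nanog by 0.11, -0.08 and -0.09, with an interval of -0.20 to 0.16. Sox2 differed by -0.08, -0.11 and -0.08. Of the 26 genes of the list, 1 was higher (Tbx3, at 0.60, 0.29 and 0.17) and 7 were lower in all 3 pairs. Dppa4, a chromatin-associated protein of pluripotent cells, was the 1 member past the floor, at -0.42, -0.48 and -0.33, and its other probe set gave -0.25, -0.31 and -0.42. Bnip3, a mitophagy receptor and hypoxia target, was lower by 0.71, 0.49 and 0.34 and by 0.41, 0.49 and 0.19 on its other probe set.

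Over the 117 genes, 8 had at least 1 other probe set listed under their symbol alone, 9 in all. The differences of these probe sets were not used in the choice of genes. Where each probe set lies was not checked, so some, main ones included, may read copies of the gene rather than the same RNA. Of the 9 probe sets, 6 had the direction of the main probe set in all 3 pairs and 0 the opposite direction in all 3; those of Pcdh15, Prkch and Zic5 were mixed. Vmn1r174 and Tuba3b, members of families of close copies, are also among the 69, and what their probe sets read is uncertain.

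Genes next to each other among those measured formed 3 pairs in the set: Krt8 with Krt18, Dgat2 with Mogat2, and Foxr2 with Rragb. Foxr2, a forkhead factor, differed by -0.31, -0.41 and -0.29, and Rragb, a GTPase that signals amino acids to mTORC1, by -0.29, -0.40 and -0.32. Usp51, a deubiquitinase of histone H2A, lies near them on the X chromosome and differed by -0.43, -0.50 and -0.45. Their steps were alike in size across the 3 lines, and their groups did not overlap. X-linked genes were 6 of the 69 higher and 5 of the 48 lower genes, and 3.71% of all genes.

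The sequences of microRNAs at 1 locus are shown because its probe sets held the only microRNA past the floor. The Mir17hg locus on chromosome 14 makes several microRNAs from 1 long transcript, and they are known for promoting proliferation and survival. Mature sequences are from RefSeq (GRCm38.p6), 5′ to 3′, with the seed (bases 2 to 8) in capitals.
miR-17-5p: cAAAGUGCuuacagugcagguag
miR-20a-5p: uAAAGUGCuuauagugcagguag
miR-18a-5p: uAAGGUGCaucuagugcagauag
miR-19a-3p: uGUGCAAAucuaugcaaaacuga
miR-19b-3p: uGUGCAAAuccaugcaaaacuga
The miR-17 and miR-20a seeds are the same, as are those of miR-19a and miR-19b. The array was hybridised with total RNA and its probe sets lie on the hairpin precursors, so they do not measure the mature forms shown.

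Mir19a read 7.04 without and 6.41 with dox in hairpin 1, 7.28 and 6.84 in hairpin 2, and 7.35 and 6.64 in scrambled. Its groups did not overlap, and the mean difference was -0.59 (SE 0.08; interval -0.78 to -0.40; limma adjusted p = 0.2475), or 1.51-fold lower. Mir18 differed by -0.42, -0.25 and -0.52, and Mir17 by -0.38, -0.22 and -0.61. The host transcript Mir17hg differed by -0.41, -0.29 and -0.11. The other hairpins were not lower in every line. Mir20a, which shares its seed with Mir17, differed by -0.04, 0.30 and 0.03. Mir19b-1, which shares its seed with Mir19a, differed by -0.38, 0.03 and -0.26, so it was lower in hairpin 1 and scrambled. Mir20a read between 5.07 and 5.41 on the 6 arrays, under their lower quartiles of 5.50 to 5.56, where a step may be missed. Over 287 microRNA genes, 24 were higher and 58 lower in all 3 pairs, and Mir19a was the only 1 past 1.2-fold. These genes were named after their values were seen.

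**Figure D3:**
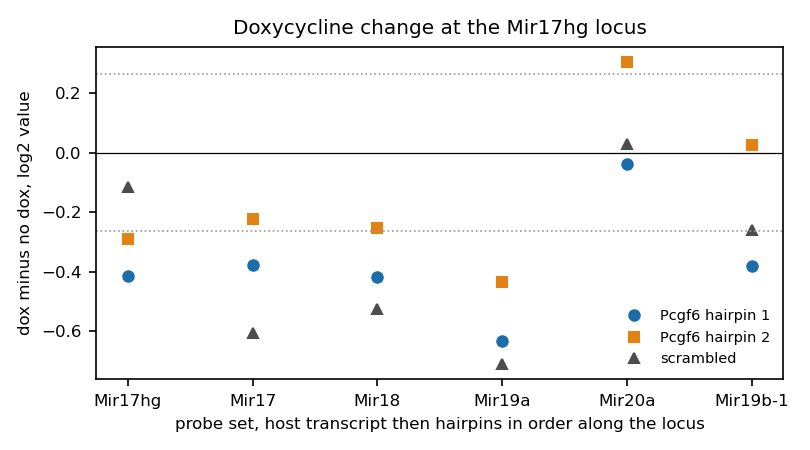
Differences between dox and no dox (log2 values, y axis) at the probe sets of the Mir17hg locus, in order along the locus, with 1 point per line and dotted lines at the 1.2-fold floor. Mir17, Mir18 and Mir19a are below 0 in all 3 lines, while Mir20a has points on both sides.

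Genes of mitochondria, of the integrated stress response and of the small RNA machinery were read from lists. The arrays measure RNA, so a slower mitochondrial translation would not itself be seen in them. Of the 78 mitochondrial ribosome genes, 3 were higher and 15 lower in all 3 pairs, and none passed 1.2-fold in each. Their medians were 0.02, -0.07 and -0.14. Mrpl21, a protein of the large subunit, differed by -0.16, -0.35 and -0.18, and Mrps6, of the small subunit, by 0.19, 0.34 and 0.15. Of 73 nuclear genes of the respiratory chain 1 was higher and 17 were lower, with medians of 0.02, -0.01 and -0.12. Ndufv3, a subunit of complex I, differed by -0.30, -0.28 and -0.17. Set against the 18.5% of all genes that were lower in all 3 pairs, 15 of 78 and 17 of 73 are not far from the background. On the higher side, 3 of 78 and 1 of 73 are few against 15.2% of all genes. Both medians were lowest in the scrambled pair. Only 2 genes of mitochondrial DNA were measured: COX2 at 0.09, -0.01 and 0.00, and ND3 at 0.16, 0.09 and 0.09.

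Genes of the integrated stress response had no common direction. Of 35 genes 6 were higher and 11 lower in all 3 pairs, none by 1.2-fold, with medians of -0.02, 0.06 and -0.10. Atf4 itself differed by -0.17, -0.10 and -0.11 (interval for the mean -0.29 to 0.04), and Trib3, a target of Atf4, by 0.10, -0.03 and -0.33. Ddit3, which encodes the stress factor CHOP, differed by 1.59 in hairpin 2 and by -0.01 and 0.08 in the others. The endoplasmic reticulum chaperones stood out in the same line: all 20 were higher in hairpin 2, with a median of 0.50 against 0.03 and 0.10, and 13 were higher in all 3 pairs. Sel1l, of the degradation machinery of that compartment, differed by 0.09, 1.15 and 0.34, and Xbp1, the factor that drives the chaperones, by 0.19, 0.39 and 0.18. Among heat shock genes Hspa1a differed by 0.07, 1.49 and 0.20.

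None of the 13 measured genes of the small RNA machinery had the same direction in all 3 pairs. Dicer1 differed by 0.03, -0.05 and -0.01, Drosha by -0.06, -0.16 and 0.12, Xpo5, which exports hairpins from the nucleus, by -0.03, 0.08 and 0.06, and Ago2, the cleaving Argonaute, by -0.09, 0.06 and 0.00. The intervals of the mean reached past the 1.2-fold floor for Ago3 (upper bound 0.35) and Prkra (lower bound -0.34) and for none of the other 11.

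Fibroblast genes differed in 2 of the 3 pairs. In the feeder fibroblast list, 12 of 24 genes were higher in hairpin 1, 23 in hairpin 2 and 23 in scrambled, with medians of 0.01, 0.41 and 0.45. Its mean level was 10.21 without and 10.22 with dox in hairpin 1, 10.15 and 10.56 in hairpin 2, and 9.41 and 9.90 in scrambled, and the lowest value of any of its genes on any array was 4.91. Col1a1, a fibrillar collagen, differed by -0.03, 0.63 and 0.57, and Thy1, a surface protein of fibroblasts, by 0.11, 0.40 and 0.69. Metalloproteinases and their inhibitors followed the same lines: 10 of 24 were higher and 1 was lower in all 3 pairs, with medians of 0.00, 0.30 and 0.33, and Mmp3, at 0.21, 0.59 and 0.89, was among the largest. TGF-beta and Nodal targets had medians of 0.03, 0.41 and 0.34, and contractile genes -0.01, 0.21 and 0.26. Among the 69 higher genes the smallest step was in hairpin 1 for 37, in hairpin 2 for 10 and in scrambled for 22. With the feeder list's mean as a covariate, 969 genes had an unadjusted p under 0.05 in limma, against 2314 without it. The covariate left 1 residual degree of freedom against 2, so these 2 counts cannot be compared directly. The part of feeder RNA in the steps of any line was not tested.

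Growth-related lists tended to lower values with no member past 1.2-fold. Of 28 proliferation genes 0 were higher and 14 lower in all 3 pairs (medians -0.02, -0.10 and -0.05), of 34 cytosolic ribosome genes 0 and 16 (medians -0.01, -0.03 and -0.12), and of 23 histone genes 3 and 14. Tyms, thymidylate synthase, differed by -0.14, -0.42 and -0.12. Glycolytic genes were lower mainly with the Pcgf6 hairpins, with 2 of 19 higher and 9 lower and medians of -0.11, -0.14 and -0.01. Aldoc, an aldolase, differed by -0.56, -0.47 and -0.18. Lysosome and autophagy genes went the other way, 11 of 18 higher and 0 lower in all 3 pairs, with medians of 0.04, 0.29 and 0.10; Gpnmb, a lysosomal membrane protein, differed by 0.21, 0.94 and 0.75.

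**Figure D4:**
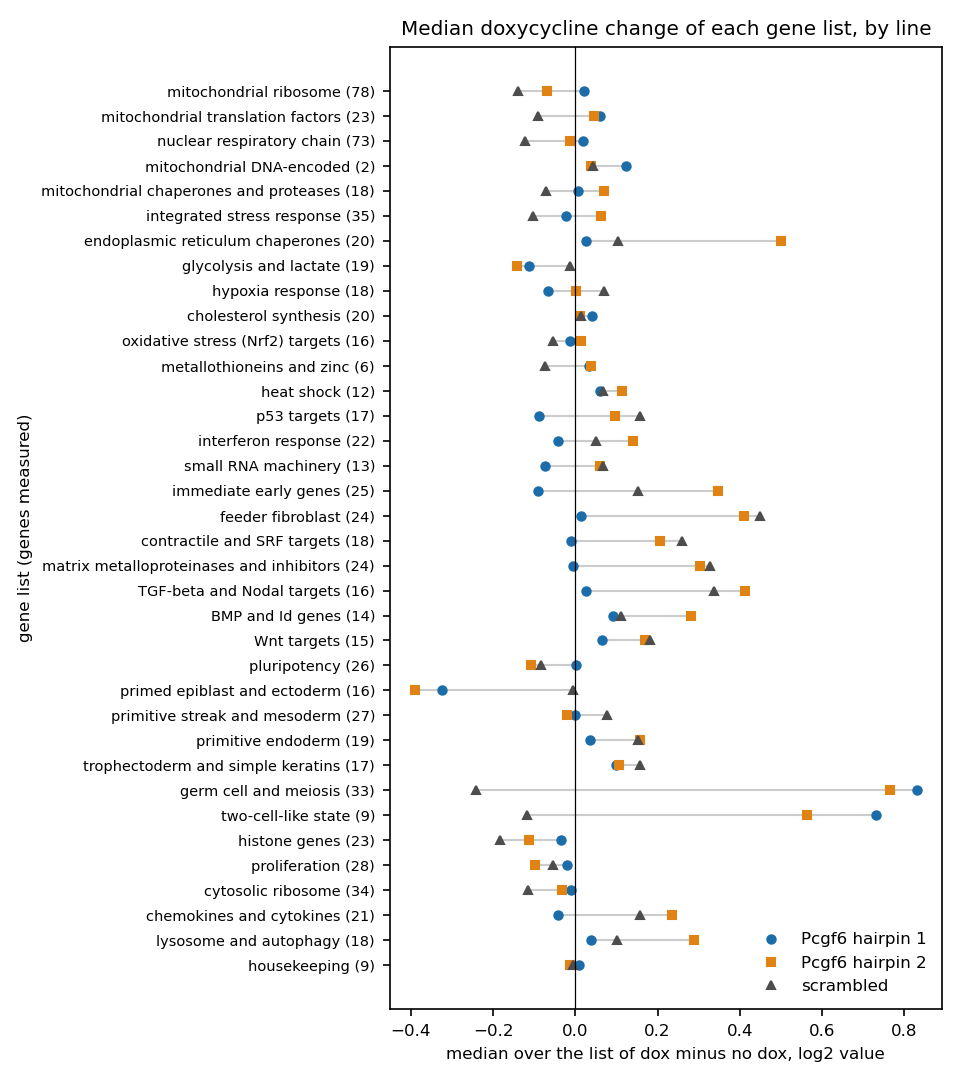
Median over each gene list of the difference between dox and no dox (log2 values, x axis), with 1 point per line and the number of genes measured in brackets. Points of the 3 lines lie apart for feeder fibroblast genes (0.01, 0.41 and 0.45), endoplasmic reticulum chaperones (0.03, 0.50 and 0.10) and germ cell genes (0.83, 0.77 and -0.24).

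Promoters of the shared genes are shown for 3 members with a match to AP-1, the dimer of Fos and Jun proteins. From RefSeq (GRCm38.p6), 55 of the 69 higher and 39 of the 48 lower genes had a promoter sequence, 250 bases before to 50 after a start, some with several. AP-1 was searched as TGANTCA on both strands. It was found in 10 of 70 promoters of higher genes (14.3%), in 1 of 47 of lower genes (2.13%) and in 7.81% of all 32851 promoters. Counted by gene, since several starts of a gene can share a match, these were 8 of 55 higher genes (14.5%), 1 of 39 lower genes (2.56%) and 8.97% of all genes with a promoter. Below, 5′ to 3′ on the gene's strand, capitals mark AP-1 matches and the CCAAT box (CCAAT, or ATTGG on the other strand).
Plet1, chr9:50494275-50494574, plus strand: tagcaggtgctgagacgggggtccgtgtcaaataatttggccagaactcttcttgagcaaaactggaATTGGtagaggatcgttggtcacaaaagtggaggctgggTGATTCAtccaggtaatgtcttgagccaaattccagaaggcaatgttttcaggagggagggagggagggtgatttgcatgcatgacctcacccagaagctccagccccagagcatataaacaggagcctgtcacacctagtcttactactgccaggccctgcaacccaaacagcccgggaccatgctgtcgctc
Krtdap, chr7:30787655-30787954, plus strand: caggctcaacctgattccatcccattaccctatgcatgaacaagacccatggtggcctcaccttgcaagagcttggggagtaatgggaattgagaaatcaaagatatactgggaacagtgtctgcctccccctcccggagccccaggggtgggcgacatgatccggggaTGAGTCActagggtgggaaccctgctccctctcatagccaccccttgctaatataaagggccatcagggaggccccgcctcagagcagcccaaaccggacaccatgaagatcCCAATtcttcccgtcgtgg
Irgm1, chr11:48871371-48871670, minus strand: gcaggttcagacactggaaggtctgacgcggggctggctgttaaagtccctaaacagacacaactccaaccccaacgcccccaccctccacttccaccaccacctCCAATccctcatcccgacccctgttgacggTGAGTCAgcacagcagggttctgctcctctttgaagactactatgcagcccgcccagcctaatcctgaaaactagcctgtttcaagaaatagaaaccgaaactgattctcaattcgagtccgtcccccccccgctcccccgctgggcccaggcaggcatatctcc
These are matches of letters, not measured sites. The CCAAT box was in 32.9% of higher, 40.4% of lower and 37.4% of all promoters. The E-box CACGTG was in 8.57%, 8.51% and 7.15%, and the cyclic AMP element TGACGTCA in 1.43%, 2.13% and 1.79%. TGATGNAAT, the element that Atf4 binds with its partners, was in 0% of either set and in 0.965% of all promoters. The counts are small, and no test was made.

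The 3 lines were unlike in how they moved over all genes. At least 1.2-fold, 896 genes were higher and 823 lower in hairpin 1, 2286 and 1848 in hairpin 2, and 1590 and 1247 in scrambled. Across 19938 genes, which are not independent replicates, the differences of hairpin 2 correlated with those of hairpin 1 at r = 0.36 and with those of scrambled at r = 0.34, while hairpin 1 and scrambled correlated at r = 0.01. The 3 pairs share no array but were normalised together. Among the 69 higher genes the median difference was 0.37, 0.55 and 0.42 in hairpin 1, hairpin 2 and scrambled, and among the 48 lower genes -0.41, -0.45 and -0.36. Hairpin 2 gave the largest step in 37 of the 69 and 29 of the 48. The genes had a median array value of 8.15 for higher and 8.23 for lower genes against 7.55 for all genes. Before dox the lines already differed for them. Of the 69 higher genes, 52 read higher in the uninduced hairpin lines than in uninduced scrambled cells. So did 17 of the 48 lower genes. The same count was not made over all genes, so whether these shares are unusual was not tested. The median absolute log2 difference between uninduced hairpin and scrambled cells was 0.2211 over the higher and lower genes together. Over all genes it was 0.0989.

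**Figure D5:**
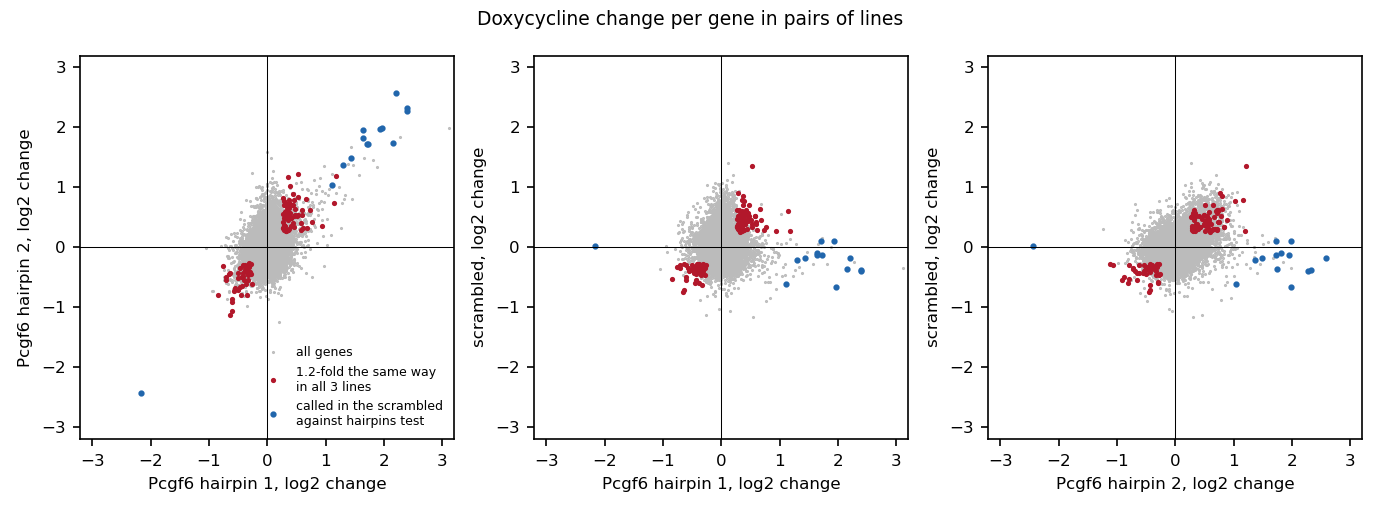
Difference between dox and no dox per gene in 1 line against another (log2 values on both axes), for the 3 combinations of lines. Grey points are all 19938 genes, red points the 117 genes past 1.2-fold the same way in every line, and blue points the 14 genes called in the test of scrambled against hairpins. Red points fill the upper right and lower left corners by their choice, while blue points lie far out along both hairpin axes and near 0 or below on the scrambled axis.

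Line-dependent differences were tested in a limma fit of the scrambled minus the mean hairpin response, without the line block, and 14 genes were called (0.0702%); with the line as a block 23 were. The scrambled arm is a single array pair with no measured spread, and the fit assumes it to vary like the hairpin arrays. None of the 14 was among the 117, which the demand of 1.2-fold in the scrambled pair largely fixes. Apart from Pcgf6, they were higher with dox in the hairpin lines. Tex11, an X-linked meiosis gene, differed by 2.40, 2.28 and -0.39, and Ddx4, a germ cell RNA helicase, by 1.71, 1.72 and 0.10. By size, the largest mean of the 117 genes (1.03 for Lce1h) was under these steps. Of the 33 germ cell and meiosis genes 7 were higher and 2 lower in all 3 pairs, none by 1.2-fold in each, since the scrambled step was small; Ddx4 was 1 of the 7, and so was Spo11, which makes meiotic DNA breaks, at 0.17, 0.20 and 0.11.

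Leaving out lines shows what each pair adds. Without the scrambled pair, limma called 54 genes, 49 higher and 5 lower, of which 2 were among the 117. Without hairpin 1 and without hairpin 2 it called 0, with smallest adjusted p-values of 0.05018 and 0.9617. Sall2 was called without the scrambled pair, at a mean of -0.81 (adjusted p = 0.03305); the other of those 2 genes was BC147527, at 1.17, 1.19 and 0.27 in hairpin 1, hairpin 2 and scrambled.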

How the data were processed

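The deposited values were log2 intensities per probe set, which the authors obtained by RMA in Affymetrix Power Tools according to the submitters' processing notes; versions and any genome build are not given in the sources used here. Total RNA from 6 samples was hybridised, 1 array each. For arrays the number of arrays, not depth, limits the precision. Probe sets were named from the platform annotation in GEO: 21789 of 35556 had 1 symbol, 1621 several and 12146 none. Of the first, 21698 were found in RefSeq by gene identifier. For each of 19938 genes the probe set brightest on average across the 6 arrays was kept; 999 genes had a choice.

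From these values limma 3.58.1 in R 4.3.3 fitted dox with the line as a block, so that the pairing came from the line named in the labels (2 residual and 4.86 prior degrees of freedom), with Benjamini-Hochberg adjustment over all genes. Intervals are 95% intervals of that fit and are not adjusted. A second fit tested the scrambled minus the mean hairpin response. The scripts were tested on simulated data. Named genes were Pcgf6, the 15 highest and 15 lowest by weakest pair, the 5 highest and 5 lowest of the response difference, and up to 4 or 8 list members of equal sign by weakest pair, with all small RNA genes. Predicted genes, receptor families and microRNAs were skipped in these rankings. Every other gene named (among them Foxr2, Rragb, the Mir genes, Plet1, Crct1, Krtdap, Dsp, Gnmt, Ifih1, Irgm1, Plagl1, Cdh5, Col1a1, Ddit3, Trib3 and the families) was picked after its values were seen. The genes and the 36 lists were chosen with earlier results of these data known. Alternatives were quantile normalisation, median centring, leaving out the dimmest 25% or 50% of genes, the mean of a gene's probe sets, all probe sets, no block, an intensity trend, robust variance priors, the feeder list's mean as a covariate, and leaving out each pair.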

Additional observations from a re-analysis of the deposited data

Results flagged for a closer look

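The response to dox differed between the scrambled line and the hairpin lines, in limma's test of that difference, for 7 of the genes named here, given as scrambled minus the mean of the hairpins on the log2 scale. Pcgf6 differed by 2.33 (adjusted p = 0.02561), the hairpins being directed against it. Rhox13 differed by -2.75, Tex11 by -2.73, Mael by -2.64 and Slc25a31 by -2.57, all higher with dox only where a Pcgf6 hairpin was present (in 2 of 2 hairpin pairs) and lower in the scrambled pair. Mov10l1 differed by -1.84 and Ddx4 by -1.62. Each arm of this test rests on 1 array pair for scrambled and 2 for the hairpins.

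Probe sets listed under several symbols lie outside the table of genes and carried differences common to the 3 lines, those of Sprr2a being the largest of any probe set by the weakest pair, above the level of all the no-dox arrays or of the no-dox array of the same line. The probe set of Sprr2a1, Sprr2a2, Sprr2a3 and Sprr2b was higher with dox by 1.45 on average over 3 pairs, that of Sprr2a1 and Sprr2a3 by 1.34, that of Gbp2 and Gbp2b by 0.51, and those of Rtl8a and Rtl8b by 0.49 and 0.53. None was called in the limma fit over all probe sets (adjusted p = 0.639). A further probe set of Sprr2a1 and Sprr2a3 held the same values on every array and was counted with its twin.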

How the results depend on the processing

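The paired test called 0 genes under 12 of 13 alternatives, with a smallest adjusted p between 0.05018 and 0.9617 (0.1258 with the feeder list's mean as a covariate); leaving out each pair gave 0 to 54 called genes, the 54 without the scrambled pair. The unpaired fit, with no replicate block, gave 0 calls and a smallest adjusted p of 0.6441. For the response difference, 14 genes in the reported fit, the calls were 4 with median centring, 9 with the dimmest 25% of genes left out, 4 with 50% left out and 23 with a replicate block; Slc25a31 was not called with median centring (adjusted p = 0.05378), and Tex13b was called under 3 alternatives. Over all probe sets, 4593 were higher and 6407 lower in all 3 pairs, 199 and 165 by 1.2-fold. Without the dimmest 50% of genes, 2009 were higher and 1866 lower. With 1 pair left out, where equal sign is asked of 2 pairs only, 4745 to 5311 genes were higher and 5360 to 6689 lower, and 95 to 856 and 100 to 277 passed 1.2-fold; the most, 856, came without hairpin 1. Leaving out a pair cannot reverse the mean of a gene of equal sign in all 3 pairs. For named genes of mixed sign it can, as for Dgat1 (-0.17, 0.08 and 0.02) when hairpin 1 is left out. Quantile normalisation and centring moved the share of higher genes among those of equal sign from 45.1% to 46.5% and 48.2%.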
